A study of Mus musculus with 16 samples.

Results

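The genes described here are the ligand, the receptors and the SMAD machinery of TGF-beta signalling, chosen by name: Tgfb1, Tgfbr1, Tgfbr2, Smad2, Smad3, Smad4, Smad7, Ski, Skil and Smurf2. They are 10 of 17128 genes listed for plasmacytoid dendritic cells (pDCs) and 10 of 17721 genes listed for conventional dendritic cells (cDCs). Transcripts were sequenced in 16 libraries of dendritic cells (DCs), which had been sorted from the spleens of C57BL/6 mice aged 6 to 8 weeks. Mice with floxed Trim33 alleles and no Cre (Trim33 fl/fl) are called WT, and mice with the same floxed alleles plus Itgax-Cre (Trim33 fl/fl Itgax-Cre) are called cKO, so that the floxed alleles were common to both groups and Cre was present in cKO only. The Itgax promoter drives Cre in cells that express CD11c, a surface integrin of DCs. The pDCs and the cDC2s each had 3 libraries per genotype and the cDC1s had 2, and each library held cells pooled from several mice, more of them for cKO than for WT. The sort took CD11c+ SiglecH+ cells as pDCs, MHC II+ CD24+ CD172a- cells as cDC1s and MHC II+ CD24- CD172a+ cells as cDC2s. The question put to the data was whether loss of TRIM33, a nuclear protein that binds receptor-activated SMADs, went with other transcript levels of this pathway in each subset.

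TGF-beta is made as a latent precursor and, once released, binds the type II receptor TGFBR2, which recruits and activates the type I receptor TGFBR1. TGFBR1 phosphorylates SMAD2 and SMAD3, which join SMAD4 and act on target genes in the nucleus, while SMAD7 blocks the receptor, SKI and SKIL repress SMAD complexes and SMURF2 marks pathway proteins for degradation. TRIM33, also called TIF1-gamma, can partner phosphorylated SMAD2 and SMAD3 and can ubiquitinate SMAD4, and TGF-beta signalling is known for its part in the differentiation of DC subsets such as Langerhans cells and CD103+ DCs.

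The 250 bases before the start of Tgfbr1, Tgfbr2 and Smad3 are shown because Tgfbr1 and Smad3 were the members that passed the test in cKO cDC1s and Tgfbr2 encodes the partner of TGFBR1 that did not. The sequences are from RefSeq on GRCm38.p6, read on the coding strand. Capitals mark CAGAC, the core of the classic SMAD-binding element, or GGCGC, a GC-rich motif that SMADs also bind, on either strand (GTCTG or GCGCC). Tgfbr1 lies on the plus strand, and the window is chr4:47352972-47353221. Tgfbr2 is on the minus strand, with the window chr9:116175364-116175613, and Smad3, also on the minus strand, has the window chr9:63757995-63758244.
Tgfbr1: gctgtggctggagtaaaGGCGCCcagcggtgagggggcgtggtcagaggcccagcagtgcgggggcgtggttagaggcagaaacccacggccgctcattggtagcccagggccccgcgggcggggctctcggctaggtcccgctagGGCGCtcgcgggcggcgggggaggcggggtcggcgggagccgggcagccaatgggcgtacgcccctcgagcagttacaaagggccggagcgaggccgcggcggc
Tgfbr2: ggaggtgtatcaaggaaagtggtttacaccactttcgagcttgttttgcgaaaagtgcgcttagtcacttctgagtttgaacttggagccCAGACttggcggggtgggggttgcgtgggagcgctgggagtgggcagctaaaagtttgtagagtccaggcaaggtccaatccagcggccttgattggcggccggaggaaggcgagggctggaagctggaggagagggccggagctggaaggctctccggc
Smad3: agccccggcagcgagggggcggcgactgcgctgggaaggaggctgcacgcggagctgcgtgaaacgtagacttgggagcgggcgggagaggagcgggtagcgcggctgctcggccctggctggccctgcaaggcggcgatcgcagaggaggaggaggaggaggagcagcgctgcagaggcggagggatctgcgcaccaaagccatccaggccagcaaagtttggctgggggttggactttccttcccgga
The Tgfbr1 window held 3 matches to GGCGC, overlapping matches on the opposite strands included, and 0 to CAGAC. A second Tgfbr1 promoter entry, away from the gene start (chr4:47385966-47386215) and not shown, held 1 match to CAGAC and 0 to GGCGC. The Tgfbr2 window held 1 match to CAGAC and 0 to GGCGC, and neither motif was spelled in the Smad3 window. Among 32851 RefSeq promoter windows, CAGAC was present in 42.2% and GGCGC in 32.0%. A match describes these letters only.

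Expression was given as TPM, a transcript's share of all transcripts in a library after its reads are divided by its length, so that levels can be compared between genes. Fold changes are cKO over WT of log2(TPM + 1), a scale on which the changes of weakly expressed genes look smaller than they are, and each carries its standard error (SE) from limma. The term called is used for a gene whose adjusted p, over all genes tested, did not exceed 0.01 and whose log2 fold change was 0.5 or more in size. The deposited values gave no read totals, and depth estimated from the steps of 1 read was 18.14 to 20.08 M reads per library, where 1 TPM on a 2000-base transcript corresponds to 16.46 to 21.11 reads. Trim33 itself stood at 20.60, 23.83 and 22.33 TPM in WT pDCs and at 12.61, 16.49 and 11.73 TPM in cKO pDCs. In cDC1s it was 15.47 and 18.18 TPM in WT and 7.88 and 7.71 TPM in cKO. WT cDC2s had 20.64, 18.19 and 17.21 TPM and cKO cDC2s 7.93, 7.13 and 8.07 TPM. Every cKO library was therefore below every WT library of its subset, and Trim33 was called in cDC1s (log2 fold change -1.01, SE 0.13, adjusted p = 0.000349) and cDC2s (-1.17, SE 0.11, adjusted p = 0.000126). In pDCs its adjusted p was 0.0301, or 0.00361 with the replicate number as a block. The summed TPM of 6 markers of each subset was 14590 to 15750 for pDC markers in pDCs. It was 2226 to 2280 in WT and 1584 to 1625 in cKO for cDC1 markers in cDC1s, and 1365 to 1651 for cDC2 markers in cDC2s. The libraries thus bore the markers of their labels. The cDC2 sum alone does not part cDC2s from pDCs, where it was 1964 to 2259, but the pDC sum was only 127.6 to 197.5 in cDC2s. The cDC1 sum of both cKO cDC1 libraries lay below that of both WT libraries. In bulk libraries a smaller share of cells with a transcript and less of it per cell cannot be told apart.

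**Figure D1:**
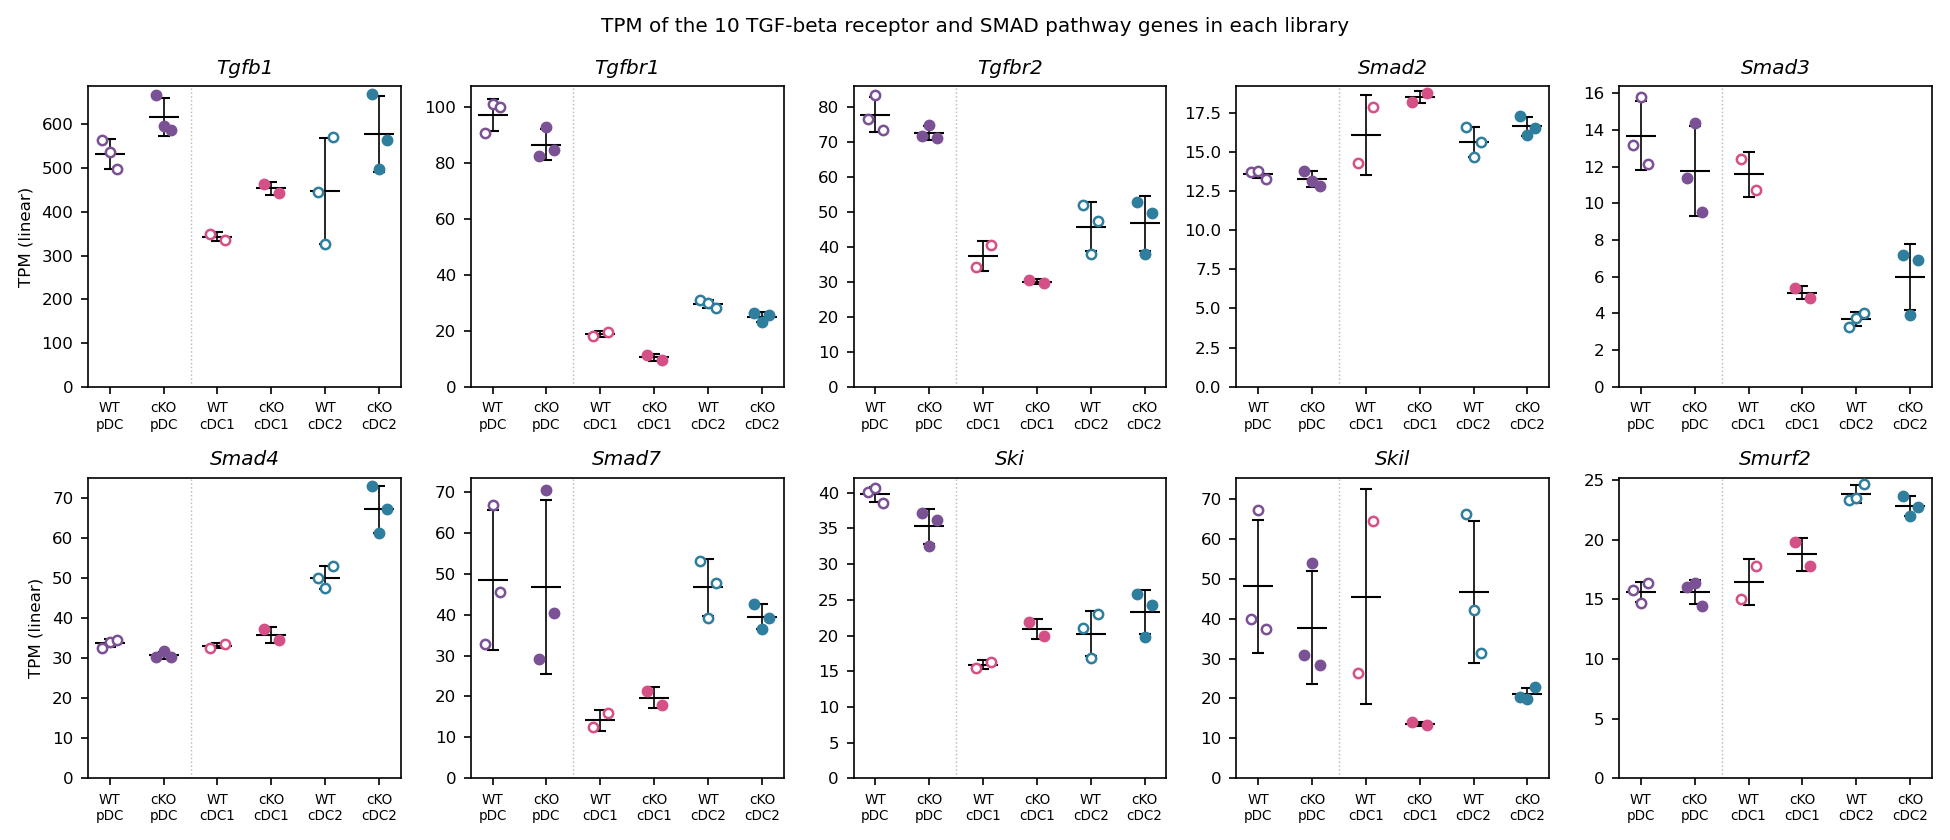
TPM (linear axis from 0) of the 10 member genes in each of the 16 libraries, with open points for WT, filled points for cKO, and the mean with its SD in black. The dotted line parts the pDC table from the cDC table, which were deposited apart. Tgfbr1 and Smad3 of the cKO cDC1 libraries lie below both WT cDC1 libraries, at 9.53 to 11.47 and 4.87 to 5.39 TPM, and Skil spreads widely among WT libraries.

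Tgfb1, the ligand gene, had the highest level of the 10 genes in every library. WT pDCs had 563.90, 536.48 and 496.90 TPM and cKO pDCs 666.39, 595.43 and 587.14 TPM. In cDC1s the values were 350.05 and 335.71 TPM in WT and 464.25 and 442.42 TPM in cKO. All cKO libraries lay above all WT libraries in these subsets. In cDC2s the groups overlapped, with 445.13, 326.28 and 569.89 TPM in WT and 670.06, 498.39 and 564.04 TPM in cKO. Mean Tgfb1 in cKO was 116% of the WT mean in pDCs, 132% in cDC1s and 129% in cDC2s. The differences did not pass the test in pDCs (log2 fold change 0.21, SE 0.07, adjusted p = 0.156), cDC1s (0.40, SE 0.22, adjusted p = 0.173) or cDC2s (0.39, SE 0.18, adjusted p = 0.152). With the replicate block in pDCs, the adjusted p was 0.0344 and Tgfb1 was again not called.

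Tgfbr1, which encodes the signalling type I receptor, fell in cDC1s. The WT cDC1 libraries had 18.03 and 19.55 TPM and the cKO libraries 11.47 and 9.53 TPM, which puts the cKO mean at 55.9% of WT. The log2 fold change was -0.79 (SE 0.12, adjusted p = 0.000905). The call was lost without the second cKO cDC1 library (-0.67, adjusted p = 0.0121), and it held in 18 of 19 alternative settings. Tgfbr1 in cDC2s was 30.96, 29.97 and 28.28 TPM in WT and 26.34, 23.02 and 25.80 TPM in cKO. These groups did not overlap either, but the log2 fold change of -0.24 (SE 0.10) had an adjusted p of 0.118. Side by side and untested, the pDC table listed a higher level, 90.73, 101.04 and 100.06 TPM in WT and 82.55, 92.97 and 84.58 TPM in cKO, where the groups overlapped (log2 fold change -0.16, SE 0.07, adjusted p = 0.242).

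Tgfbr2, the ligand-binding type II receptor gene, did not pass the test in any subset. In cDC1s it was at 34.25 and 40.46 TPM in WT and 30.55 and 29.59 TPM in cKO, with no overlap, though its log2 fold change was only -0.30 beside an SE of 0.18 (adjusted p = 0.215). WT cDC2s had 51.92, 38.02 and 47.34 TPM and cKO cDC2s 52.74, 37.83 and 49.56 TPM. The second library of either genotype was the lowest there, and the groups overlapped throughout (log2 fold change 0.03, SE 0.15, adjusted p = 0.919). pDCs had 76.58, 83.21 and 73.40 TPM in WT and 71.64, 74.68 and 71.14 TPM in cKO, again with overlap (log2 fold change -0.10, SE 0.07, adjusted p = 0.444). Among WT cDCs, Tgfbr1 was lower in cDC1s than in cDC2s (log2 difference -0.64, SE 0.11, adjusted p = 0.000927), while Tgfbr2 gave -0.28 (SE 0.17, adjusted p = 0.189).

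Smad3, a receptor-regulated SMAD that binds DNA directly, had the largest called change of the members. WT cDC1s had 12.45 and 10.71 TPM and cKO cDC1s 5.39 and 4.87 TPM, so that both cKO values were below both WT values and their mean was 44.3% of WT. The log2 fold change was -1.03 (SE 0.23, adjusted p = 0.0054). With 2 libraries a group, this call was lost without the first cKO library (adjusted p = 0.0308), without the second (0.0389), without the first WT library (0.0403) and without the second WT library (0.0166), with log2 fold changes from -1.13 to -0.94. It was also lost with no filter on low genes, at an adjusted p of 0.0157.

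Smad3 of cDC2s had its values the other way round. WT cDC2s were at 3.28, 3.75 and 4.02 TPM and cKO cDC2s at 7.19, 3.93 and 6.90 TPM. The second cKO library sat within the WT range while the others were above it. The log2 fold change of 0.55 (SE 0.19) did not pass the test (adjusted p = 0.0624), and without that library it was 0.78 with an adjusted p of 0.00555. The cDC1 effect minus the cDC2 effect was -1.58 (SE 0.29) for Smad3, with an adjusted p of 0.011, just outside the threshold. That difference was called with FPKM values (-1.48, adjusted p = 0.00434), with median-of-ratios scaling (-1.78, adjusted p = 0.00324), with quantile normalization (-1.77, adjusted p = 0.00274) and without the second cKO cDC2 library (-1.82, adjusted p = 0.00125). Before any effect of genotype, WT cDC1s exceeded WT cDC2s in Smad3 by a log2 difference of 1.43 (SE 0.21, adjusted p = 0.000271), a call made in all 17 alternatives. The order of the cDC group means was WT cDC2 (3.68 ± 0.37 TPM, SD, n = 3), cKO cDC1 (5.13 ± 0.37, n = 2), cKO cDC2 (6.01 ± 1.80, n = 3) and WT cDC1 (11.6 ± 1.23, n = 2), in which only the cKO groups overlapped as neighbours. pDC libraries had 13.18, 15.78 and 12.14 TPM in WT and 11.39, 14.37 and 9.53 TPM in cKO, with overlapping groups (log2 fold change -0.21, SE 0.16, adjusted p = 0.485).

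Smad2, the other receptor-regulated SMAD, stayed within a narrow range of 12.80 to 18.77 TPM over the 16 libraries. pDCs had 13.69, 13.75 and 13.29 TPM in WT and 13.80, 13.16 and 12.80 TPM in cKO. In cDC1s there were 14.29 and 17.88 TPM in WT and 18.20 and 18.77 TPM in cKO. WT cDC2s had 16.58, 14.67 and 15.63 TPM and cKO cDC2s 17.26, 16.06 and 16.53 TPM. The groups overlapped in pDCs and cDC2s, and in cDC1s the cKO values were only just above WT. The log2 fold changes were -0.03 (SE 0.08, adjusted p = 0.848) in pDCs, 0.20 (SE 0.12, adjusted p = 0.232) in cDC1s and 0.08 (SE 0.10, adjusted p = 0.593) in cDC2s. The value for pDCs was above 0 with median-of-ratios scaling or quantile normalization.

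Smad4, the common partner that receptor-regulated SMADs need, was not called in cKO cells. WT cDC2s had 49.94, 47.39 and 52.97 TPM and cKO cDC2s 72.92, 61.33 and 67.16 TPM, so that all cKO libraries were above all WT libraries and their mean was 134% of WT. The log2 fold change of 0.41 (SE 0.09) was under the fold limit and its adjusted p was 0.0111. cDC1s had 32.61 and 33.58 TPM in WT and 37.25 and 34.40 TPM in cKO, and the log2 fold change, 0.11 (SE 0.11, adjusted p = 0.455), turned to -0.08 with median-of-ratios scaling and -0.07 with quantile normalization. In pDCs, where the values were 32.64, 33.93 and 34.53 TPM in WT and 30.26, 31.68 and 30.17 TPM in cKO, each cKO library was below each WT library by a small margin (log2 fold change -0.13, SE 0.07, adjusted p = 0.304).

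Smad7, the inhibitory SMAD that is itself a TGF-beta target, differed between the WT cDC subsets rather than between genotypes. WT cDC1s had 12.42 and 16 TPM and WT cDC2s 53.06, 39.19 and 47.72 TPM (log2 difference -1.65, SE 0.15, adjusted p = 1.1e-05). The call held in all 17 alternatives. cKO cDC1s had 21.45 and 17.88 TPM, above both WT libraries (log2 fold change 0.45, SE 0.17, adjusted p = 0.0584). cKO cDC2s had 42.64, 36.59 and 39.28 TPM, which overlapped WT (log2 fold change -0.23, SE 0.14, adjusted p = 0.275). The difference between these effects was 0.67 (SE 0.22, adjusted p = 0.0726). In pDCs the libraries differed more by replicate number than by genotype, with 32.82, 66.83 and 45.63 TPM in WT and 29.23, 70.55 and 40.48 TPM in cKO, and the second library was the highest of either genotype (log2 fold change -0.08, SE 0.34, adjusted p = 0.913, and SE 0.07, adjusted p = 0.432 with the replicate block).

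Ski, a corepressor of SMAD complexes, was not called in any subset. pDCs had 40.06, 40.69 and 38.61 TPM in WT and 37.09, 32.56 and 36.18 TPM in cKO, with every cKO library lower (log2 fold change -0.17, SE 0.07, adjusted p = 0.235). cDC1s had 15.47 and 16.34 TPM in WT and 21.95 and 19.88 TPM in cKO, with both cKO libraries higher (0.37, SE 0.16, adjusted p = 0.0953). In cDC2s the groups overlapped, at 21.00, 16.84 and 23.00 TPM in WT and 25.81, 19.81 and 24.27 TPM in cKO (0.19, SE 0.13, adjusted p = 0.335).

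Skil, which encodes the related corepressor SnoN and is induced by TGF-beta, had the lowest cKO values relative to WT of all members in cDCs. WT cDC1s had 26.46 and 64.53 TPM and cKO cDC1s 14 and 13.36 TPM, a cKO mean at 30.1% of WT. The WT libraries were far apart and the cKO libraries close together. The log2 fold change of -1.53 (SE 0.38) had an adjusted p of 0.0101 and so missed the threshold. It was called with a pseudocount of 0.1 (adjusted p = 0.00986), without the first WT cDC1 library (-2.16, adjusted p = 0.00285), without the first WT cDC2 library (adjusted p = 0.00537) and without the WT cDC2 library numbered 3 (adjusted p = 0.006), while without the second WT cDC1 library it was -0.90 with an adjusted p of 0.0675. None of 3 other scalings called it, although the adjusted p with median-of-ratios scaling (log2 fold change -1.72) lay just above the threshold. WT cDC2s had 66.27, 42.13 and 31.50 TPM and cKO cDC2s 20.45, 19.91 and 22.79 TPM. Here too the groups did not overlap, and the log2 fold change was -1.05 (SE 0.31, adjusted p = 0.0404). In pDCs the values were 39.84, 67.35 and 37.30 TPM in WT and 30.86, 53.97 and 28.35 TPM in cKO, so the groups overlapped, although each cKO library was below the WT library of the same number. The pDC log2 fold change was -0.35, with an SE of 0.28 (adjusted p = 0.53), or 0.06 with the replicate block (adjusted p = 0.00852), and its size stayed under the fold limit.

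Other genes induced quickly by cell signals varied among the same libraries. They were chosen after the values of Skil were seen. Nr4a1, an immediate-early nuclear receptor gene, was at 336.06 and 1096.69 TPM in WT cDC1s and at 96.06 and 98.06 TPM in cKO cDC1s. WT cDC2s had 3357.33, 812.93 and 830.32 TPM and cKO cDC2s 339.19, 310.97 and 349.50 TPM. The WT library with the most Skil was also the one with the most Nr4a1 in cDC1s, cDC2s and pDCs, where the WT values were 26.00, 74.94 and 35.55 TPM and the cKO values 29.19, 70.41 and 37.19 TPM. Atf3, a stress-induced factor, was 160.41 and 624.58 TPM in WT cDC1s, 84.67 and 113.70 TPM in cKO cDC1s, 1156.34, 171.22 and 318.48 TPM in WT cDC2s and 118.39, 120.94 and 139.56 TPM in cKO cDC2s. Neither Egr1 nor Fosb, 2 more such genes, was highest in the WT library with the most Skil in every subset. Both were so in cDC2s. Egr1 was 541.67 and 417.80 TPM in WT cDC1s and 47.68 and 55.01 TPM in cKO cDC1s. Fosb, which kept that order in cDC1s, was 335.83 and 1025.24 TPM in WT and 334.18 and 347.03 TPM in cKO. In WT pDCs neither kept it, with Egr1 at 71.62, 53.13 and 35.48 TPM and Fosb at 910.91, 1221.50 and 1368.92 TPM. The part of such signals, in the animal or during cell isolation, in the Skil values was not tested.

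**Figure D2:**
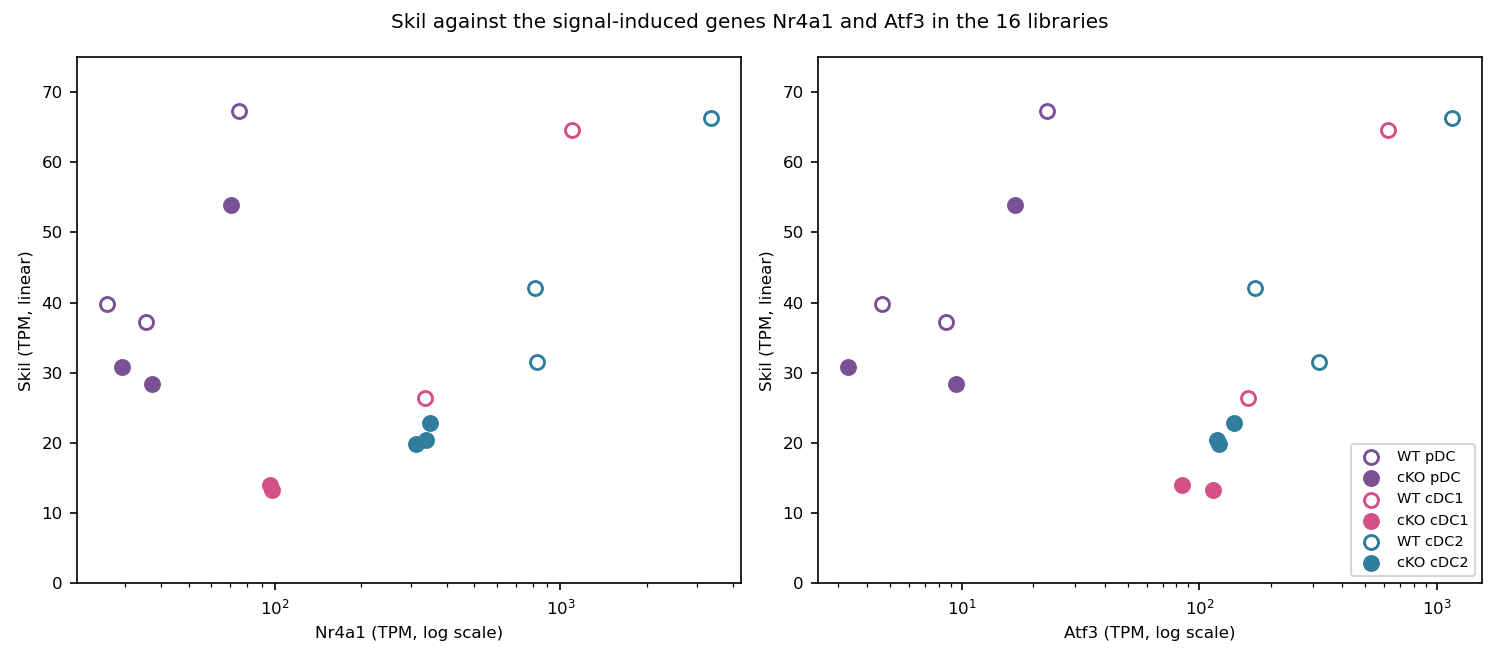
Skil (TPM, linear axis) against Nr4a1 (left) and Atf3 (right, both TPM on log axes) in the 16 libraries, with open points for WT and filled points for cKO. The cKO cDC1 libraries sit at the bottom, at 14 and 13.36 TPM of Skil, and the WT libraries with the most Nr4a1 in their subset have 64.53 to 67.35 TPM of Skil.

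Smurf2, a ubiquitin ligase that acts on receptors and SMADs, did not differ beyond the replicate spread between genotypes. pDCs had 15.80, 14.72 and 16.40 TPM in WT and 16.08, 16.36 and 14.49 TPM in cKO. cDC1s had 15.07 and 17.84 TPM in WT and 19.78 and 17.81 TPM in cKO. cDC2s had 23.34, 23.49 and 24.72 TPM in WT and 23.72, 22.04 and 22.73 TPM in cKO. The groups overlapped in each subset, and the log2 fold changes were 0.00 (SE 0.09, adjusted p = 0.999), 0.18 (SE 0.11, adjusted p = 0.223) and -0.06 (SE 0.09, adjusted p = 0.683). In cDC1s the value was -0.003 with median-of-ratios scaling.

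Counted over the members, 0 of 10 were called in pDCs, where 1.05% of the 11299 genes tested were called (0.814% higher and 0.239% lower), and 2 of 10 had an unadjusted p under 0.05 in limma, as did 20.8% of all genes tested. With the replicate block, which the pairing of the pDC libraries allowed, again 0 members were called against 2.96% of genes (2.3% higher and 0.664% lower). In cDC1s 2 of 10 were called, Tgfbr1 and Smad3, both lower, against 22.4% of 11411 genes called, 15.8% higher and 6.56% lower. An unadjusted p under 0.05 was found for 5 of 10 members and 48.6% of all genes. With both directions pooled, the members' shares were thus close to those of all genes. By direction they were not, as the called members were lower while most called genes were higher on these values. In cDC2s 0 of 10 were called against 7.15% of genes (3.59% higher and 3.56% lower), with 4 at an unadjusted p under 0.05 in limma against 34.1% of all genes. The difference between the cDC1 and cDC2 effects was called for 0 members against 2.56% of genes (1.21% above and 1.35% below 0), with 3 at an unadjusted p under 0.05 in limma against 30.7% of all genes. The median log2 fold change of the members and of all genes tested was -0.11 and -0.05 in pDCs, 0.15 and 0.17 in cDC1s and 0.06 and -0.03 in cDC2s.

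Ranges of the cKO and WT libraries did not overlap for 27.5% of all genes in pDCs, 76.2% in cDC1s and 35.5% in cDC2s. Among the members, cKO was above WT for 1 in pDCs (10.8% of all genes), 5 in cDC1s (52.1%) and 1 in cDC2s (16.3%), and below WT for 2 in pDCs (16.7%), 4 in cDC1s (24.1%) and 2 in cDC2s (19.2%). With 2 libraries a group, such separation in cDC1s was usual among all genes. The shift of the median gene in cDC1s was 0.17 with TPM, and median-of-ratios scaling brings it close to 0 by construction. The share of called genes that were higher fell from 70.7% to 47.2% with that scaling and to 52.4% with quantile normalization. Relative to the median gene, the cDC1 log2 fold changes were -1.21 for Smad3, -0.96 for Tgfbr1, -1.70 for Skil, -0.47 for Tgfbr2, -0.06 for Smad4, 0.01 for Smurf2, 0.03 for Smad2, 0.20 for Ski, 0.23 for Tgfb1 and 0.27 for Smad7. The WT cDC1 libraries serve the contrast of genotypes in cDC1s, the difference between the effects and the contrast of the WT subsets, so these are not independent of each other.

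**Figure D3:**
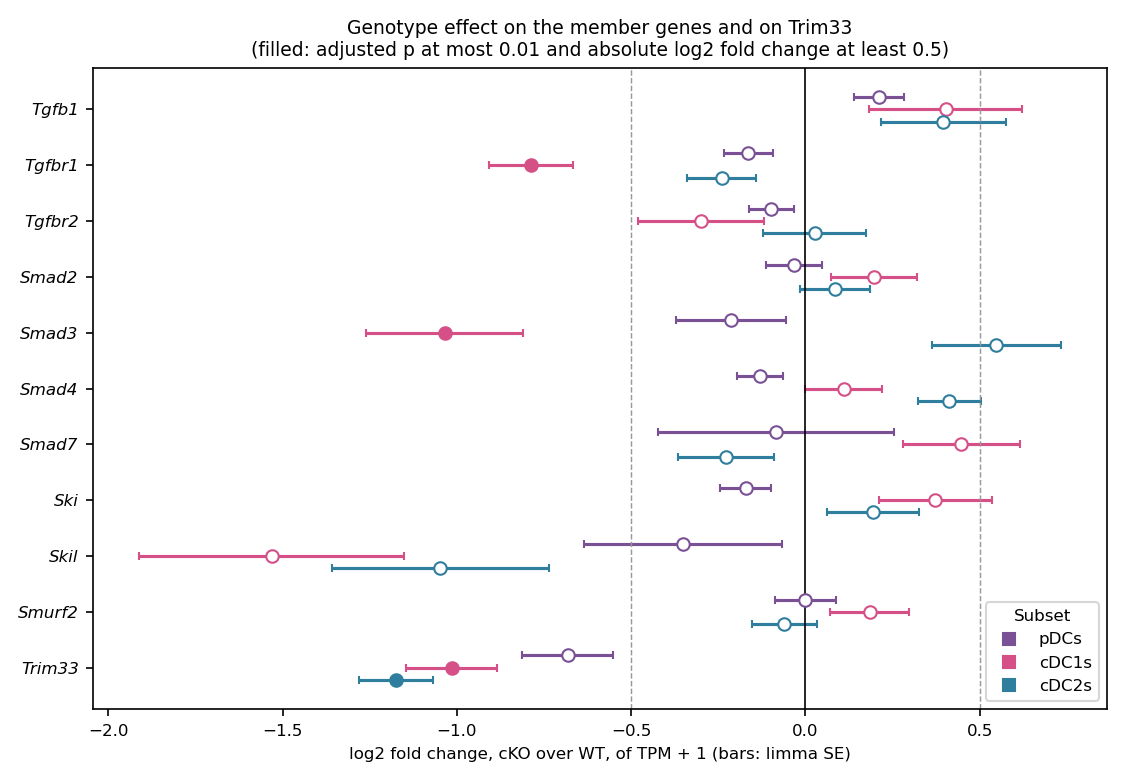
log2 fold change, cKO over WT, of TPM + 1 with its SE for the 10 members and Trim33 in pDCs, cDC1s and cDC2s. Filled points were called (adjusted p not above 0.01, and beyond the dashed lines at 0.5), which among the members were Tgfbr1 (-0.79) and Smad3 (-1.03) in cDC1s only, and the SE of Skil is the widest in either cDC subset.

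Between the WT subsets, 5 of 10 members were called, against 31.7% of 11411 genes (10.9% higher and 20.8% lower), which shows how far the cDC1 and cDC2 starting points differed. Smad3 was higher in cDC1s. Smad7, Tgfbr1, Smad4 (log2 difference -0.58, SE 0.10, adjusted p = 0.000846) and Smurf2 (-0.51, SE 0.10, adjusted p = 0.00227) were lower there. With either other scaling of the TPM values (median-of-ratios or quantile) only Smad3 and Smad7 were called, where the median gene of this contrast lay at -0.17 with TPM, and the other log2 differences came to -0.46 and -0.47 for Tgfbr1, -0.40 and -0.45 for Smad4 and -0.34 and -0.33 for Smurf2. Relative to the median gene they were -0.47, -0.41 and -0.35, with 1.59 for Smad3 and -1.48 for Smad7. Leaving out the first WT cDC1 library also ended the calls of Tgfbr1 (-0.58, adjusted p = 0.0124) and Smurf2 (-0.40, adjusted p = 0.0314), and leaving out the third WT cDC2 library took Smurf2 under the fold limit (-0.49). Between the cKO subsets the order of Smad4 was kept, with means of 35.8 ± 2.02 TPM (SD, n = 2) in cDC1s and 67.1 ± 5.80 TPM (n = 3) in cDC2s. It was also kept without overlap for Tgfbr1 (means of 10.5 and 25.05 TPM), Smad7 (19.66 and 39.5 TPM) and Smurf2 (18.8 and 22.83 TPM). Smad3 did not keep its order, with overlapping cKO groups at means of 5.13 and 6.01 TPM.

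Markers of other cell states and cell types moved with genotype in the same libraries. The summed TPM of 8 genes of mature DCs (Ccr7, Fscn1 and Ccl22 among them) was 1070 to 2004 in WT cDC1s and 103.7 to 165.5 in cKO cDC1s, and 737.6 to 1143 in WT cDC2s and 341.9 to 539.5 in cKO cDC2s. In pDCs it was 36.34 to 49.69 in WT and 36.28 to 43.36 in cKO. Ccr7, the receptor that guides mature DCs, was 417.44 to 693.65 TPM in WT cDC1s and 18.47 to 33.68 TPM in cKO cDC1s. Thus the cDC1 and cDC2 libraries in which Skil was low were also low in this sum. In cDC2s Ccr7, Fscn1, Cacnb3, Socs2 and Tmem150c were lower in every cKO library. The genotypes overlapped there for Il4i1, Il12b and Ccl22, the last at 21.59 to 30.26 TPM in WT and 23.51 to 49.01 TPM in cKO. The part of this shift in the values of Skil, Smad3 and Tgfbr1 was not tested. The sum over 6 genes of proliferating cells was 6.92 to 10.20 in WT and 65.74 to 158 in cKO pDCs, 180.6 to 264.5 and 526.8 to 591.4 in cDC1s, and 274.8 to 400.7 and 461.5 to 592.5 in cDC2s. Its part in the member values was not tested either.

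Markers of the DC subsets themselves also moved with genotype. In cDC1s the markers Clec9a, a receptor for dead cells, and Cadm1, an adhesion molecule, were 535.65 to 546.72 and 191.60 to 196.48 TPM in WT and 212.77 to 215.77 and 54.45 to 60.54 TPM in cKO. Cd8a was 460.06 to 488.62 TPM in WT and 186.71 to 228.27 TPM in cKO, and Xcr1, a chemokine receptor gene, was 303.12 to 307.20 and 202.01 to 224.36 TPM. Tlr3 (176.59 to 206.45 in WT and 216.96 to 232.25 TPM in cKO) and Cd24a (485.91 to 608.46 and 681.99 to 692.52 TPM) lay the other way, so 4 of 6 cDC1 markers were lower and 2 higher in cKO, with no overlap. The part of this shift in the Tgfbr1, Smad3 and Skil values of cDC1s was not tested. In the same cDC1 libraries the sum of 6 pDC markers was 147.80 to 160.20 TPM in WT and 238.20 to 240.20 TPM in cKO, and that of 6 cDC2 markers 34.67 to 53.47 and 57.93 to 62.51 TPM. pDCs had a pDC sum of 15490 to 15750 TPM in WT and 14590 to 15400 TPM in cKO, a cDC1 sum of 466.40 to 557.70 and 399.90 to 442.40 TPM, and a cDC2 sum of 2165 to 2259 and 1964 to 2093 TPM. In cDC2s all 3 sums overlapped between the genotypes, although most single cDC2 markers did not. Cd4 (261.38 to 365.6 TPM in WT and 107.55 to 135.03 in cKO) and Clec4a4 (320.22 to 386.34 and 190.77 to 249.68) were lower. Itgam (80.94 to 111.74 and 166.25 to 213.88) and Clec10a (11.12 to 17.11 and 29.89 to 53.06) were higher. Cd209a (339.9 to 346.24 and 360.02 to 431.69) was also higher, and Sirpa overlapped. The part of these shifts in the member values was not tested.

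Sums of markers of other lineages were taken in the same way. In cDC1s they were 5.19 to 6.09 TPM in WT and 6.87 to 7.14 TPM in cKO for 5 T cell genes, 23.81 to 32.14 and 16.63 to 17.77 for 5 B cell genes, 3.63 to 6.88 and 3.21 to 3.37 for 5 platelet genes, 0.74 to 2.10 and 0.55 to 1.02 for 4 NK cell genes, 0.66 to 11.25 and 13.19 to 23.41 for 5 neutrophil genes (Ly6g at 0 in the WT and Elane at 0 in the cKO libraries), and 83.85 to 90.39 and 99.71 to 102.90 for 7 genes of red pulp macrophages and monocytes. Within this last list, Ly6c2 (21.07 to 27.74 and 62.4 to 69.02 TPM) and Csf1r (10.24 to 13.77 and 21.97 to 22.36) were higher in cKO cDC1s. Vcam1 (27.91 to 42.11 and 7.03 to 9.79) and Spic (7.29 to 11.67 and 1.25 to 1.51) were lower. So were Cd5l (1.82 to 2.48 and 0.61 to 0.78) and Adgre1 (3.25 to 4.04 and 2.28 to 3.07), and Fcgr1 overlapped. In cDC2s the T cell sum was 24.87 to 30.07 in WT and 22.62 to 25.89 in cKO, the B cell sum 44.90 to 61.27 and 48.16 to 49.98, the platelet sum 1.26 to 6.26 and 3.38 to 3.97, the NK cell sum 1.35 to 4.81 and 1.65 to 2.90, the neutrophil sum 5.61 to 20.89 and 12.67 to 52.43, and the macrophage and monocyte sum 422.90 to 508.50 and 476.80 to 653.50. pDCs had a T cell sum of 6.85 to 9.45 in WT and 14.20 to 17.77 in cKO, a B cell sum of 57.73 to 86.47 and 64.47 to 128.80, a platelet sum of 2.63 to 3.41 and 2.29 to 7.02, an NK cell sum of 0.26 to 4.54 and 0.75 to 1.53, a neutrophil sum of 4.54 to 17.10 and 15.26 to 65.88, and a macrophage and monocyte sum of 4805 to 5488 and 5643 to 5763. Nearly all of the last sum was Ly6c2, which pDCs also express, at 4771.32 to 5456.35 TPM in WT and 5574.25 to 5701.93 TPM in cKO. Csf1r, a receptor gene of the same list, was 11.59 to 15.98 TPM in WT and 20 to 29.25 TPM in cKO pDCs. The remaining genes of that list, Adgre1, Vcam1, Spic, Cd5l and Fcgr1, did not separate the genotypes there. Of the cDC2 list in pDCs, Itgam, a myeloid integrin gene, was 1.30 to 2.48 and 16.24 to 25.43 TPM. Clec10a was also higher in cKO, at 409.59 to 478.57 and 556.97 to 644.53 TPM. Cd4 (939.62 to 1115.67 and 686.10 to 838.51 TPM) and Cd209a (412.36 to 463.51 and 321.71 to 352.18 TPM) were lower, and Sirpa and Clec4a4 did not separate. The sums of WT and cKO did not overlap for T cell, B cell, platelet, neutrophil, macrophage and all 3 lists of DC subset genes in cDC1s, and for T cell, macrophage and the same 3 lists in pDCs, and their part in any member's value was not tested.

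Beyond the 10 members, 71 more genes of the pathway were listed by role, and 51 of them in pDCs and 55 in cDCs were expressed enough to be tested. In cDC1s 9 were called (16.4%, against 22.4% of all genes), 7 lower and 2 higher, and their median log2 fold change was 0.01 against 0.17 for all genes. The 2 higher ones, Fkbp1a (log2 fold change 0.54, adjusted p = 0.00229), which encodes the receptor-binding immunophilin FKBP12, and Uchl5 (0.82, adjusted p = 0.00158), a deubiquitinase gene, were not called with median-of-ratios scaling or quantile normalization. Of 14 targets, 4 were called lower and 10 were not called. Of 4 tested genes listed under ligand and latency, 1 was called lower, and of 3 other SMADs and anchors also 1. Among 14 genes of ubiquitin and phosphatase control, 2 were called higher and 1 lower, which was Usp11 (-0.76, adjusted p = 0.00943), another deubiquitinase gene. The 8 receptors and co-receptors, the 8 nuclear partners and the 4 genes of the non-SMAD branch had 0 calls in limma.

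Ltbp2, a member of the latent TGF-beta binding protein family, showed the largest fall. WT cDC1s had 24.03 and 22.84 TPM and cKO cDC1s 0.54 and 0.88 TPM, a cKO mean at 3.03% of WT (log2 fold change -3.84, SE 0.18, adjusted p = 1.08e-06). In cDC2s it was 2.19, 2.08 and 2.84 TPM in WT and 1.12, 1.06 and 1.63 TPM in cKO, lower in every cKO library but not called (-0.57, SE 0.15, adjusted p = 0.0242). Zfyve9 encodes SARA, the anchor that presents SMAD2 and SMAD3 to the receptor, and moved in opposite directions. WT cDC1s had 8.27 and 7.94 TPM and cKO cDC1s 2.80 and 2.89 TPM (-1.24, SE 0.15, adjusted p = 0.00025), while WT cDC2s had 4.01, 3.52 and 4.15 TPM and cKO cDC2s 7.20, 6.77 and 8.94 TPM (0.81, SE 0.12, adjusted p = 0.00188). Neither subset's groups overlapped, and the cDC2 call was lost without the third cKO library (0.71, adjusted p = 0.0105).

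Itgae, a TGF-beta target that encodes the integrin CD103, fell in cDC1s from 77.71 and 62.00 TPM in WT to 9.63 and 10.09 TPM in cKO, or 14.1% of the WT mean (log2 fold change -2.70, SE 0.27, adjusted p = 0.000102). cDC2s had little of it, with 1.42, 0.99 and 0.69 TPM in WT and 0.26, 0.23 and 1.11 TPM in cKO (-0.44, SE 0.22, adjusted p = 0.187). The cDC1 effect minus the cDC2 effect was called for 3 of 55 of these genes (5.45%, against 2.56% of all genes): Ltbp2 (-3.27, SE 0.24, adjusted p = 7.77e-05), Zfyve9 (-2.06, SE 0.19, adjusted p = 0.000359) and Itgae (-2.26, SE 0.35, adjusted p = 0.00417). For Itgae, which was low in cDC2s, the last call was lost with a pseudocount of 0.1 (adjusted p = 0.133), with no filter on low values (0.0147), without the first (0.0304) or second (0.0226) cKO cDC1 library and without the first WT cDC1 library (0.0256).

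**Figure D4:**
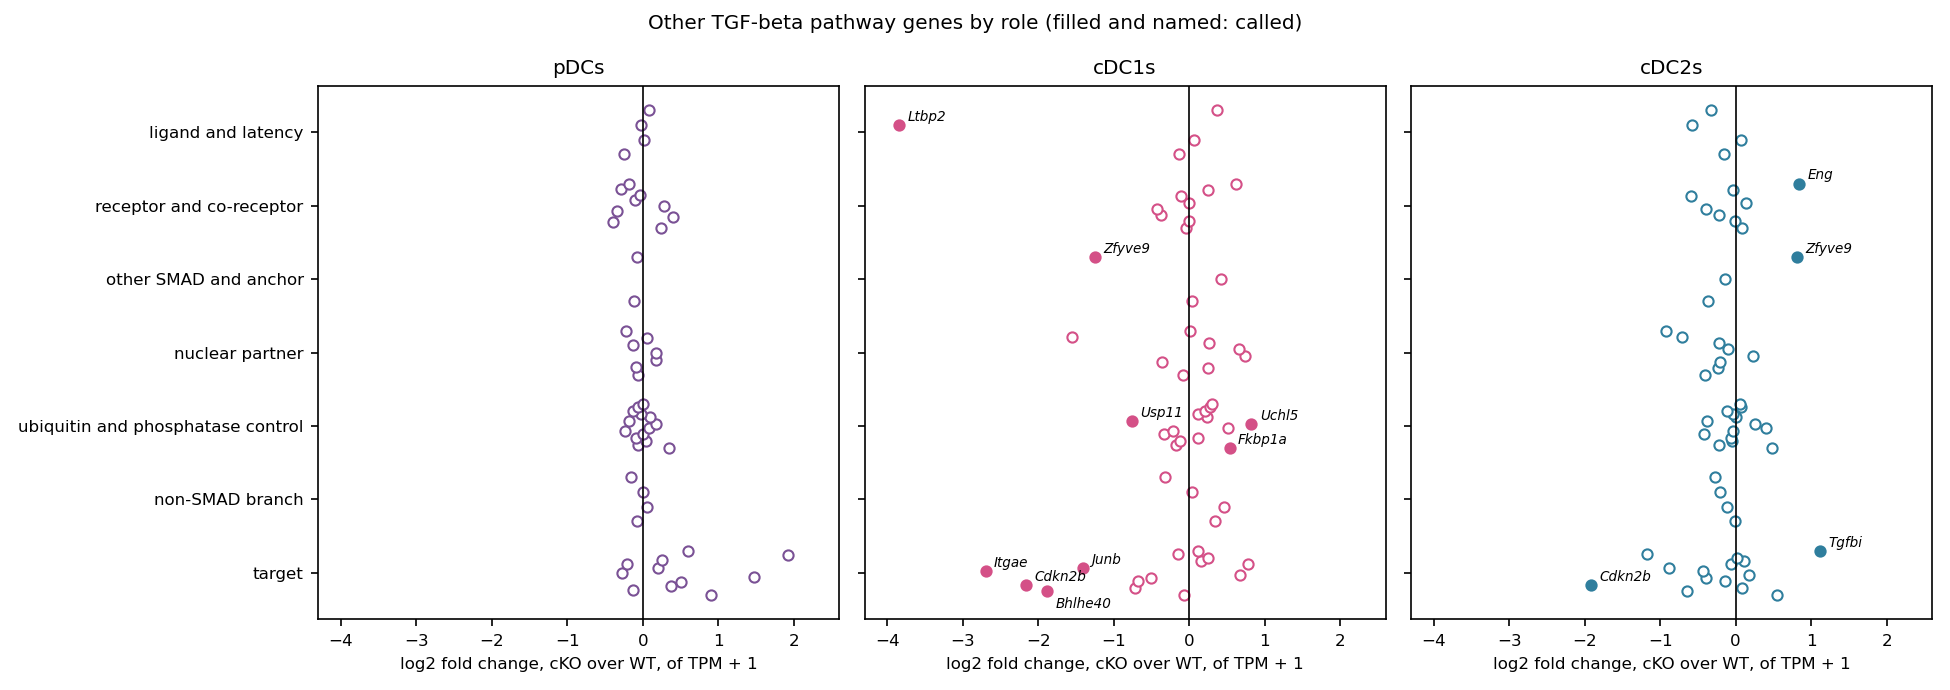
log2 fold change, cKO over WT, of TPM + 1 for the other pathway genes tested in pDCs (51), cDC1s (55) and cDC2s (55), one point a gene, in rows by role. Filled and named points were called. Ltbp2 (-3.84) and Itgae (-2.70) of cDC1s lie farthest to the left, Zfyve9 is on opposite sides in cDC1s (-1.24) and cDC2s (0.81), and no point is filled in pDCs.

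Cdkn2b, the gene of the cell cycle inhibitor p15 and a classic TGF-beta target, was called lower in both cDC subsets. It was 6.63 and 3.44 TPM in WT cDC1s and 0.08 and 0.58 TPM in cKO cDC1s (log2 fold change -2.16, SE 0.45, adjusted p = 0.0044). WT cDC2s had 6.64, 22.32 and 10.68 TPM and cKO cDC2s 2.14, 3.13 and 2.01 TPM (-1.91, SE 0.37, adjusted p = 0.00671). The groups did not overlap in either subset. The cKO cDC1 value of 0.08 TPM lay under the level of 3 reads on a 2000-base transcript in that library (0.155 TPM). With FPKM values (adjusted p = 0.0122) or no filter on low values (0.0138), limma did not call the gene in cDC1s. In cDC2s it was not called with a pseudocount of 0.1 (0.0184), no filter (0.0198) or that subset fitted alone (0.0145), and the call stood in 7 of 18 alternatives. The cDC1 call was lost without either cKO cDC1 library (adjusted p = 0.0443 and 0.015) or the first WT one (0.0387), and the cDC2 call without 7 of 10 libraries, at adjusted p from 0.0115 to 0.0318: both cKO cDC1 libraries, all 3 cKO cDC2 libraries, and the WT cDC2 libraries numbered 2 and 3.

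Bhlhe40 and Junb, transcription factor genes that TGF-beta and other signals induce, fell in cDC1s. Bhlhe40 was 35.10 and 72.31 TPM in WT and 12.33 and 13.61 TPM in cKO (log2 fold change -1.88, SE 0.42, adjusted p = 0.00571), and Junb was 1012.05 and 1598.61 TPM in WT and 461.58 and 494.75 TPM in cKO (-1.41, SE 0.33, adjusted p = 0.00724). As for Skil, the second WT library was the highest. The Bhlhe40 call was lost without the first (adjusted p = 0.0427) or second (0.0288) cKO cDC1 library, the third cKO cDC2 library (0.0103) or the second WT cDC1 library (0.0449, log2 fold change -1.37). The Junb call was lost without 7 of 10 libraries, at adjusted p from 0.0112 to 0.0565, namely each cDC1 library and each cKO cDC2 library. In cDC2s neither was called, with Bhlhe40 at 399.52, 162.67 and 168.48 TPM in WT and 154.13, 122.58 and 149.78 TPM in cKO, and Junb at 3161.77, 1570.75 and 1487.59 TPM in WT and 961.97, 1026.65 and 1178.35 TPM in cKO.

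In cDC2s 4 of 55 other pathway genes were called (7.27%, against 7.15% of all genes), 3 higher and 1 lower. Tgfbi, which encodes a matrix protein induced by TGF-beta, rose from 208.31, 189.76 and 280.65 TPM in WT to 546.36, 394.19 and 529.61 TPM in cKO (log2 fold change 1.12, SE 0.16, adjusted p = 0.00146) and was called in all 18 alternatives. Its cDC1 values of 182.54 and 190.74 TPM in WT and 203.05 and 201.77 TPM in cKO gave 0.12 (SE 0.19, adjusted p = 0.662), and the difference between these effects was not called (-1.0, SE 0.25, adjusted p = 0.0329). Eng, the gene of the co-receptor endoglin, rose from 2.77, 2.63 and 3.11 TPM to 7.22, 4.70 and 5.89 TPM (0.84, SE 0.14, adjusted p = 0.00392). The Eng call was lost without cKO cDC2 library 1 (adjusted p = 0.0135) or 3 (0.0205) and without the first (0.0129) or second (0.0151) WT cDC2 library. The median log2 fold change of the 55 genes was -0.11 against -0.03 for all genes.

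**Figure D5:**
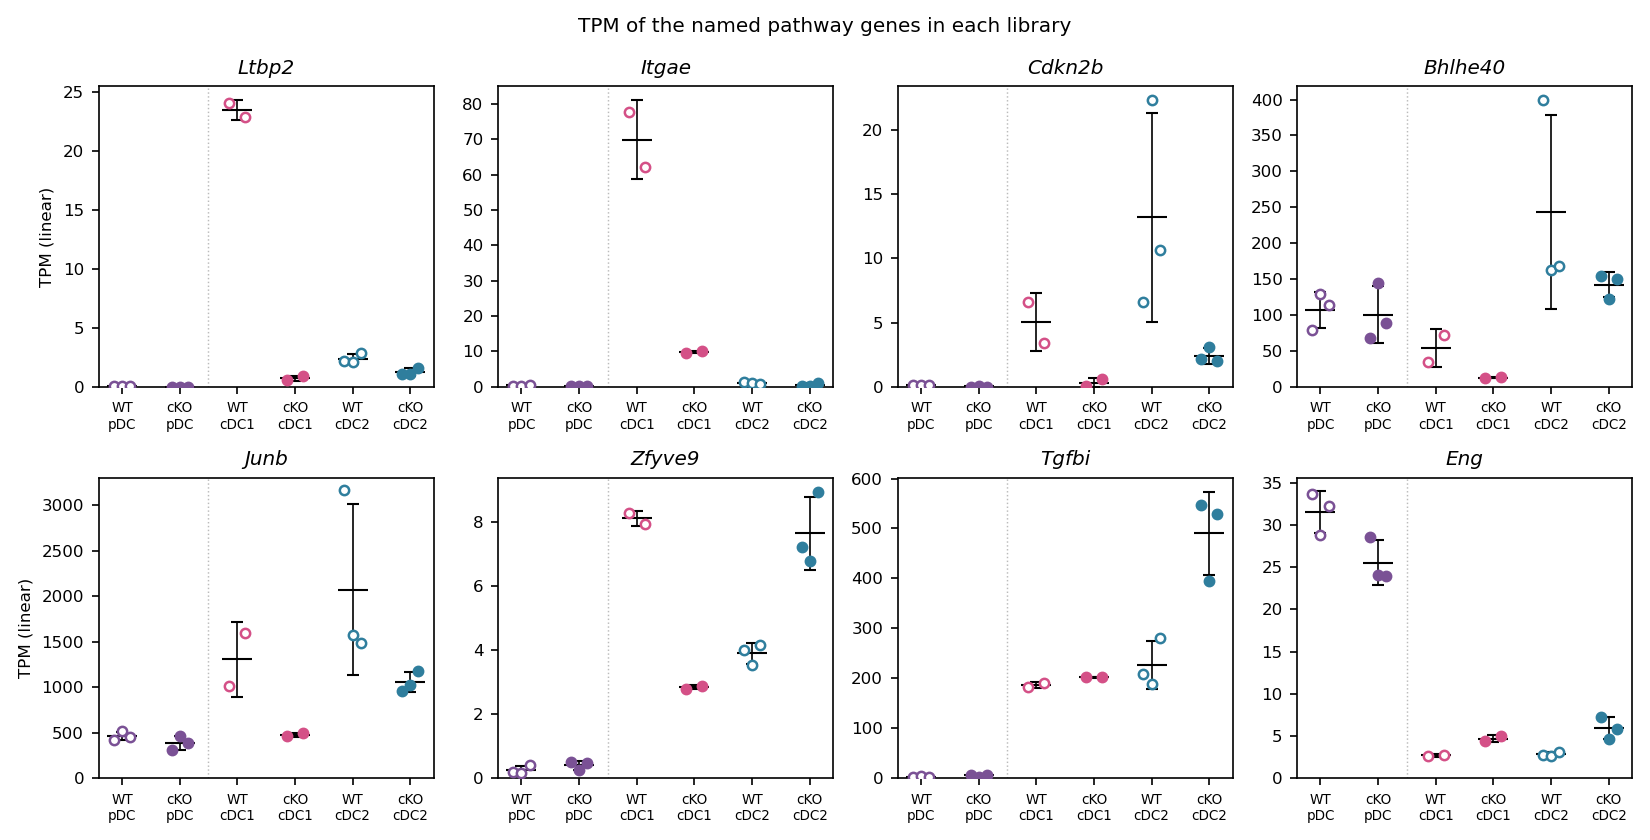
TPM (linear axis from 0) of 8 other pathway genes in each of the 16 libraries, with open points for WT, filled points for cKO, and the mean with its SD in black. The cKO cDC1 libraries have Ltbp2 at 0.54 and 0.88 TPM beside 24.03 and 22.84 TPM in WT, and the cKO cDC2 libraries are above WT in Tgfbi and Eng.

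pDCs had 0 calls among 51 other pathway genes in limma against 1.05% of all genes, with 15 (29.4%) at an unadjusted p under 0.05 against 20.8% of all genes. With the replicate block, 4 were called against 2.96% of genes, all of them targets and all higher: Snai1 (log2 fold change 1.92, adjusted p = 0.000885), Id3 (1.47, adjusted p = 0.00267), Axl (0.90, adjusted p = 0.00543) and Id2 (0.51, adjusted p = 0.00875). Snai1, a repressor of transcription, was 7.90, 6.94 and 14.82 TPM in WT and 27.89, 45.21 and 43.99 TPM in cKO. Id3, an inhibitor of E proteins such as the pDC factor TCF4, was 8.50, 22.71 and 10.73 TPM in WT and 37.71, 44.32 and 30.80 TPM in cKO. Id2, a related inhibitor, was 14.31, 15.06 and 17.98 TPM in WT and 23.28, 19.56 and 26.03 TPM in cKO. Axl, a receptor tyrosine kinase gene, was 8.64, 10.20 and 8.35 TPM in WT and 16.93, 15.55 and 21.10 TPM in cKO. All cKO libraries lay above all WT libraries for these 4 genes, as they did for 10.8% of all genes in pDCs. These genes were named because they had been called, so their separation adds no support.

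The pattern most like that of Smad3 over the 10 cDC libraries, by the root mean square difference of log2(TPM + 1) after centring each gene, belonged to Dpp7 (0.171), Dpep2 (0.215), Nab2 (0.22), Dapk1 (0.239) and Vwf (0.241) among 11410 genes. No member of the pathway was among these 5, which says little where so many genes were compared.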

How the data were processed

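The authors deposited TPM and FPKM values per gene, apart for pDCs and cDCs, with 32 value columns that all matched the sample titles. Per the study's methods, single-end 50-base reads were filtered with SOAPnuke, and the submitters' processing notes name HISAT2 2.0.4, Bowtie2 2.2.5 and RSEM 1.2.12 on mm10. The release of the transcript reference is not given in the sources used here. Gene IDs were named with RefSeq for GRCm38.p6 (17079 of 17128 in pDCs, 17667 of 17721 in cDCs). Depth was estimated from the steps of low FPKM values.

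Genes whose mean TPM reached 1 were tested on log2(TPM + 1) with limma 3.58.1 (lmFit, eBayes with trend, two-sided) in R 4.3.3, in place of the count test the authors used, since TPM values are not counts. The pDC fit held 6 libraries and the cDC fit 10 libraries with 4 group means and a shared spread, with Benjamini-Hochberg adjustment over 11299 and 11411 genes. The fits were tested on simulated data. Python 3.11.15 with pandas 2.3.3, numpy 2.4.6 and matplotlib 3.10.9 served for tables and plots.

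The members, the lists and the tests were chosen with earlier results of these data known. Named genes were Trim33, all members, and of the 71 other pathway genes up to 6 called per subset by size and up to 4 called in the difference between cDC1 and cDC2 effects, plus genes named beside counts of 5 or fewer. Genes called only with the block, and Nr4a1, Atf3, Fosb and Egr1, were named after their values were seen.

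In pDCs the same-numbered WT and cKO libraries deviated together (correlations of deviations 0.31, 0.392 and 0.206 over 11299 genes), so the numbers were taken as pairs from the data. The labels do not say what a number marks. The labels call the libraries biological replicates, and p-values measure the spread between pooled libraries. Reads carried no molecular identifiers, so limits of depth cover counting error only, and 3 reads on a 2000-base transcript reached up to 0.182 TPM. Alternatives changed the pseudocount, filter, unit, scaling, trend, threshold, libraries fitted and replicate block. When a cDC1 library was left out, the remaining one was assumed to vary like the other groups. Promoter entries were found for Tgfb1, Tgfbr1, Tgfbr2, Smad3, Ski and Smurf2, and those of Skil, Smad2, Smad4 and Smad7 were not used here.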

Additional observations from a re-analysis of the deposited data

Results flagged for a closer look

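The effect of genotype differed between cDC1s and cDC2s, by the test of the difference itself, for Ltbp2 (cDC1 effect minus cDC2 effect -3.27), Itgae (-2.26) and Zfyve9 (-2.06). Zfyve9 was the one whose libraries all moved in opposite directions, with a log2 fold change of -1.24 in cDC1s and 0.81 in cDC2s.

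Some genes had all cKO libraries on one side of WT in pDCs and on the other side in cDCs, and these differences were not tested because the tables were deposited apart. Smad4 was at -0.13 in pDCs, 0.11 in cDC1s and 0.41 in cDC2s. Ski was at -0.17 in pDCs and 0.37 in cDC1s. Eng was at -0.30 in pDCs, 0.62 in cDC1s and 0.84 in cDC2s. Of these values only that of Eng in cDC2s was called, and separation of the groups was common among all genes (27.5% in pDCs, 76.2% in cDC1s, 35.5% in cDC2s).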

How the results depend on the processing

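Of the log2 fold changes of named genes under single alternatives, 1047 kept their direction and side of the threshold, 63 lost and 11 gained a call, and 40 changed sign. Changes of sign all concerned uncalled values. With median-of-ratios scaling and quantile normalization they were, for the cDC1 effect minus the cDC2 effect, Ski -0.029 and -0.029 and Smad2 -0.095 and -0.073, for the WT subsets Skil 0.077 and 0.011 and Trim33 0.030 and 0.058, in pDCs Smad2 0.0058 and 0.020 and Smurf2 0.039 and 0.049 (0.026 with FPKM), and in cDC1s Smad4 -0.082 and -0.071. With median-of-ratios scaling Smurf2 in cDC1s was -0.0028 and the Trim33 difference of effects -0.047, and the Tgfb1 difference of effects was -0.10 with FPKM, -0.21 with median-of-ratios scaling and -0.054 with quantile normalization. Leaving out 1 library at a time, the range crossed 0 for Skil (-0.73 to 0.53 between the WT subsets, -1.11 to 0.14 for the difference of effects), Smad2 (-0.12 to 0.18 and -0.039 to 0.27), the Tgfb1 difference of effects (-0.19 to 0.22), Tgfbr2 in cDC2s (-0.10 to 0.17), and Smad7 (-0.42 to 0.20) and Smurf2 (-0.041 to 0.051) in pDCs.

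The count of members called moved from 2 to 1 in cDC1s with no filter and with the replicate block, where Smad3 (-1.03) lost its call at an adjusted p of 0.0157 and 0.0116, from 0 to 2 in cDC2s at an adjusted p of 0.05 with no fold limit, from 0 to 1 for the difference of effects at that threshold and with FPKM, median-of-ratios scaling or quantile normalization, and from 5 to 2 between WT subsets with these last scalings. Leaving out 1 library gave 0 to 3 members in cDC1s, 0 to 1 in cDC2s, 0 to 1 for the difference of effects, 3 to 5 between WT subsets and 0 in pDCs. Other pathway genes called at an adjusted p of 0.05 with no fold limit numbered 21 in cDC1s, 11 in cDC2s, 3 in pDCs and 5 for the difference of effects. In cDC2s 2 were called with no filter, with the replicate block and in the fit of that subset alone, and 4 in pDCs with the block. With 1 library left out they were 3 to 11 in cDC1s, 1 to 4 in cDC2s, 0 to 1 in pDCs and 2 to 4 for the difference of effects.

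Over all genes, the 0.05 threshold called 514 in pDCs (119 in the report), 4522 in cDC1s (2555), 2274 in cDC2s (816), 1286 for the difference of effects (292) and 5557 between WT subsets (3612). The replicate block called 335 in pDCs, 356 in cDC2s and 95 for the difference, and there the Itgae difference of effects lost its call (adjusted p = 0.0287). pDC calls were 56 with no trend and 24 with no filter, and cDC2s alone gave 444. With 1 library left out the counts were 12 to 97, 800 to 2888, 316 to 907, 77 to 282 and 2649 to 3575, in the same order. Apart from cDC1s, the share of called genes that were higher moved from 50.2% to 61.0% in cDC2s with FPKM, from 47.3% to 27.6% and 30.8% for the difference of effects, and from 34.4% to 50.1% and 52.3% between WT subsets, with median-of-ratios scaling and quantile normalization. Same-numbered libraries did not deviate together in cDC1s (correlation -0.233) or cDC2s (-0.249, 0.253 and -0.165), so their numbers were not taken as pairs. A crossed pairing of the cDC1 libraries, added after seeing the data, called 3 members (Tgfbr1, Smad3 and Skil), 7 other pathway genes and 2310 genes. The causes of these changes were not tested. Values of 1 TPM rest on about 16.46 to 21.11 reads, so genes near that level, such as Itgae in cDC2s, have the least support.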
